A study of Mus musculus with 3 samples.

Results

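The protein genes of the mitochondrial genome were compared between cultured lung mesenchymal stromal cells (LMSCs) of mice at 3 tumor stages. Members were all genes of the deposited count table whose symbol starts with mt-, and these were 13 of 34742 genes. The rule was a name, but the set was selected on earlier values of the same data, namely the counts of mitochondrial genes in these 3 libraries, so all values below are a description with no test. All 13 encode proteins, and the mitochondrial rRNA and tRNA genes are not analysed here. The LMSCs came from MMTV-PyMT mice on the FVB/N strain, in which the mouse mammary tumor virus promoter drives the polyoma middle T antigen in mammary epithelium. All groups carried this transgene. The stages were adenoma (A-LMSC, 7 weeks of age), pre-metastatic (PM-LMSC, 11 weeks) and metastatic (M-LMSC, 13 weeks). Per the study's methods, adherent lung cells were depleted of CD45+ leukocytes with magnetic beads and used at passage 3. There was 1 library of total RNA per stage, so stage, age and library cannot be told apart, and no difference below has a replicate check. Intervals cover counting error only.

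Mitochondrial DNA is a small circle kept in many copies per cell. Its protein genes encode only core subunits of the respiratory chain and of the ATP synthase, and all other subunits are imported from the cytosol. Both strands are transcribed from end to end into long precursors, which are cut mostly at the tRNAs between the genes and then polyadenylated. Overlapping pairs of genes, mt-Atp8 with mt-Atp6 and mt-Nd4l with mt-Nd4, stay on 1 mRNA each. Fragments of mitochondrial DNA have also been copied into the nuclear genome over evolution, and a read from a mitochondrial mRNA can align to such a copy as well as to its true source.

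The libraries held 13479898 counts for A-LMSC, 12594155 for PM-LMSC and 14338909 for M-LMSC. A floor of 3 counts was worth 0.272, 0.234 and 0.174 CPM (counts relative to the library total, scaled by TMM factors of 0.818, 1.016 and 1.20). All 10 LMSC markers were detected in every library, among them Vim at 1218, 2253 and 831 CPM. Their sum was not steady, at 31547 CPM in A-LMSC, 18774 CPM in PM-LMSC and 7221 CPM in M-LMSC. The median log2 ratio of these markers was nevertheless 0.89 for PM-LMSC over A-LMSC and 0.78 for M-LMSC over A-LMSC. Ptprc (CD45) had 0, 3 and 9 counts. Leukocyte markers, 10 genes with Ptprc among them, summed to 87.4 CPM in A-LMSC, 310 CPM in PM-LMSC and 181 CPM in M-LMSC. Endothelial markers, 7 genes, summed to 3.44, 18.1 and 6.38 CPM. The part of such cells in the mitochondrial values was not tested. The 12 mammary or simple epithelial markers summed to 44.0 CPM in A-LMSC, 111 CPM in PM-LMSC and 1363 CPM in M-LMSC, with Wap and Csn2 at 0 throughout. Their part in the values of M-LMSC was not tested. The 8 lung epithelial markers summed to 116 CPM in A-LMSC, 1.02 CPM in PM-LMSC and 11.7 CPM in M-LMSC. In bulk RNA, fewer cells of a type and less RNA per cell cannot be told apart.

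The summed mitochondrial level was lowest in PM-LMSC. The 13 genes held 137531 counts for A-LMSC, 67399 for PM-LMSC and 257461 for M-LMSC. This was 12466 CPM, 5265 CPM and 14937 CPM, or 1.02%, 0.535% and 1.80% of all counts. The log2 ratio of the sum, on the scale log2(CPM + 1) used for every ratio here, was -1.24 for PM-LMSC over A-LMSC (95% interval -1.26 to -1.23). It was 0.26 for M-LMSC over A-LMSC (0.25 to 0.27) and 1.50 for M-LMSC over PM-LMSC (1.49 to 1.52). The value for M-LMSC over A-LMSC was close to the median of all measured genes, 0.34. It also depended on the scaling, from 0.020 with upper-quartile factors to 0.82 with library totals. The ratio of PM-LMSC over A-LMSC ranged from -1.48 to -0.93 over these scalings, beside an all-gene median of 0.19. The median of all genes in M-LMSC over PM-LMSC was 0.03.

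**Figure D1:**
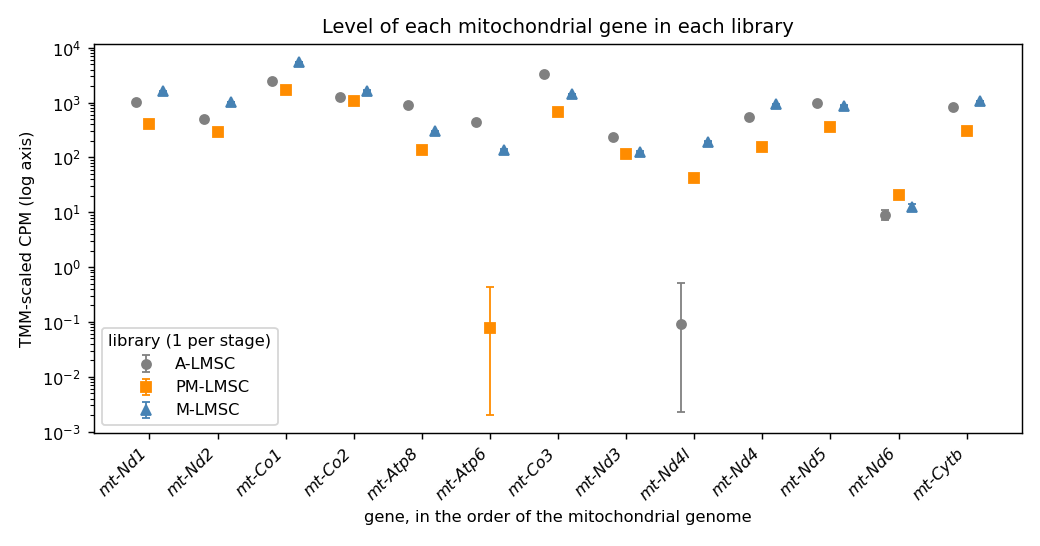
Level of the 13 mitochondrial genes, in genome order, as TMM-scaled CPM on a log axis, with 1 point for each library and exact Poisson 95% intervals. PM-LMSC lie lowest for most genes, mt-Atp6 stands at 0.078 CPM in PM-LMSC, and mt-Nd4l stands at 0.091 CPM in A-LMSC.

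Higher and lower refer to a ratio of at least 2-fold with 1 CPM or more in the higher library. In PM-LMSC over A-LMSC, 2 of the 13 genes were higher and 7 lower, with a median log2 ratio of -1.32. Of the 12727 genes measured in that comparison, 35.0% were higher and 25.0% lower. In M-LMSC over A-LMSC, 3 genes were higher and 3 lower, with a median of 0.39, against 41.0% higher and 27.7% lower among 13223 genes. In M-LMSC over PM-LMSC, 10 were higher and 0 lower, with a median of 1.69, against 17.3% higher and 7.85% lower among 13181 genes. With no replicates, no test was run, and these counts are fold calls only. They include mt-Nd4l, with 1 count in A-LMSC, called higher in both comparisons with A-LMSC. They also include mt-Atp6, with 1 count in PM-LMSC, called lower in PM-LMSC over A-LMSC and higher in M-LMSC over PM-LMSC. Comparisons that share a library are not independent of each other.

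Transcript composition moved with these ratios. Over nuclear protein-coding genes, the log2 ratio fell with GC content, with a Spearman rho across genes of -0.63 for PM-LMSC over A-LMSC, -0.71 for M-LMSC over A-LMSC and -0.39 for M-LMSC over PM-LMSC. The members have a GC content of 31.9% to 41.1%. At their GC content and length, the trend of nuclear genes alone was 1.31 to 2.32 for M-LMSC over A-LMSC and 1.19 to 1.99 for M-LMSC over PM-LMSC. The members' own medians were 0.39 and 1.69. For PM-LMSC over A-LMSC it was -0.55 to 0.98. Among the members this fitted trend, which also holds length, did not fall with GC content in the comparisons with A-LMSC. Subtraction in PM-LMSC over A-LMSC raised mt-Atp8 (31.9% GC) from -2.68 to -2.12 and lowered mt-Nd4l (41.1% GC) from 5.31 to 4.33. In M-LMSC over A-LMSC it lowered mt-Atp8 from -1.58 to -2.96 and mt-Nd4l from 7.49 to 5.17. With this trend subtracted, an alternative chosen after seeing the data, 2 genes were higher and 2 lower in M-LMSC over PM-LMSC. In M-LMSC over A-LMSC, 1 was higher and 7 were lower, and 12 of the 13 ratios were below 0. The 1 higher gene was mt-Nd4l, with 1 count in A-LMSC. Of the 2 higher in M-LMSC over PM-LMSC, 1 was mt-Atp6, with 1 count in PM-LMSC. The part of GC content in the ratios was not tested further.

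**Figure D2:**
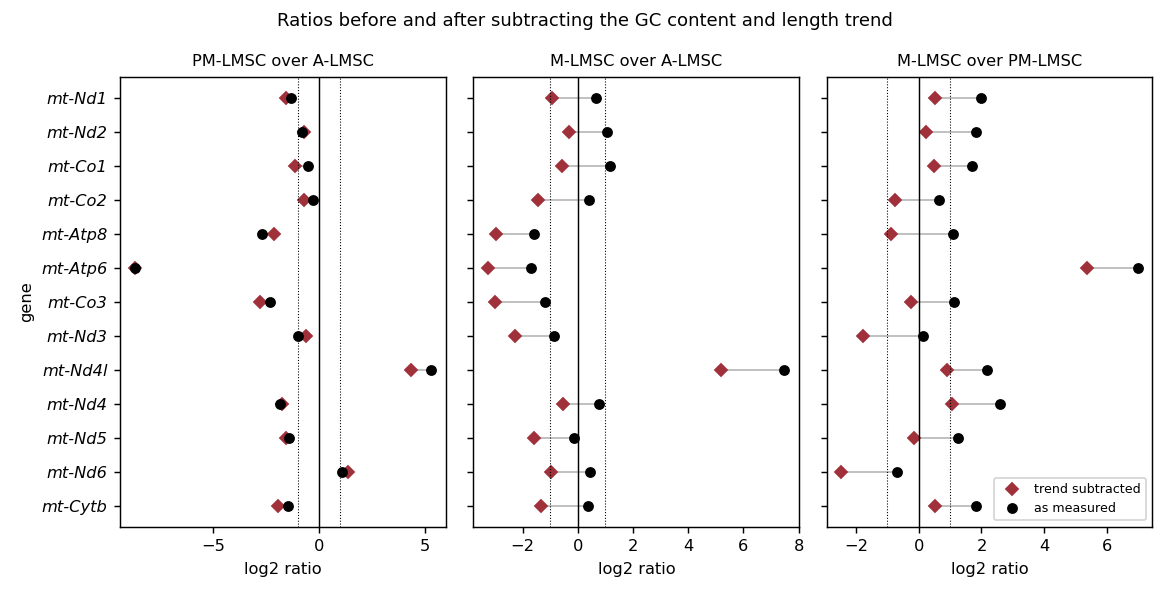
Log2 ratio of each mitochondrial gene as measured (circles) and after subtracting the GC content and length trend of nuclear protein-coding genes (diamonds), for the 3 comparisons, with dotted lines at 2-fold. No sign turned in PM-LMSC over A-LMSC, although mt-Co1 went beyond 2-fold at -1.15, and subtraction left 2 genes at least 2-fold higher and 2 lower in M-LMSC over PM-LMSC.

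The genes of complex IV, cytochrome c oxidase, were the most abundant class. This enzyme passes electrons from cytochrome c to oxygen. mt-Co1 (ENSMUSG00000064351, chromosome M, 5328 to 6872, plus strand, GRCm38), which carries the heme and copper centre where oxygen is reduced, stood at 2490 CPM in A-LMSC, 1721 CPM in PM-LMSC and 5543 CPM in M-LMSC. Its log2 ratio was -0.53 for PM-LMSC over A-LMSC and 1.15 for M-LMSC over A-LMSC, and this second value turned to -0.59 with the trend subtracted. In FPKM, which divides by gene length, mt-Co1 stood at 1319, 1132 and 4312 and ranked first of all genes in M-LMSC, against rank 21 in PM-LMSC and rank 30 in A-LMSC.

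mt-Co2 (ENSMUSG00000064354, 7013 to 7696), the subunit that takes up electrons from cytochrome c, varied least of the complex IV genes. It stood at 1267 CPM in A-LMSC, 1050 CPM in PM-LMSC and 1659 CPM in M-LMSC. Its log2 ratio for PM-LMSC over A-LMSC was -0.27 with TMM factors and 0.04 with library totals, so no direction is given. mt-Co3 (ENSMUSG00000064358, 8607 to 9390), a core subunit without metal centres, followed another pattern. It stood at 3266 CPM in A-LMSC, 663 CPM in PM-LMSC and 1442 CPM in M-LMSC, highest in A-LMSC. Its log2 ratios were -2.30 (interval -2.34 to -2.27) for PM-LMSC over A-LMSC and -1.18 (-1.20 to -1.16) for M-LMSC over A-LMSC. For every 100 counts on mt-Co1 there were 131 on mt-Co3 for A-LMSC, 38.5 for PM-LMSC and 26.0 for M-LMSC. All complex IV genes together stood at 7023, 3434 and 8645 CPM.

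The ATP synthase genes were also highest in A-LMSC. mt-Atp8 (ENSMUSG00000064356, 7766 to 7969), a small membrane subunit, had 9918 counts for A-LMSC, 1786 for PM-LMSC and 5163 for M-LMSC. These were 899, 140 and 300 CPM. In FPKM, mt-Atp8 was the most abundant mitochondrial gene of A-LMSC, at 3606, ahead of mt-Co3 at 3409, mt-Co2 at 1516 and mt-Co1 at 1319. In PM-LMSC it had 695 FPKM, behind mt-Co2 (1560), mt-Co1 (1132) and mt-Co3 (859). In M-LMSC it had 1765 FPKM, behind mt-Co1 (4312), mt-Co2 (2916), mt-Co3 (2211) and mt-Nd1 (2022). mt-Atp6 (ENSMUSG00000064357, 7927 to 8607), which forms the proton path through the membrane, had 4886 counts for A-LMSC, 1 for PM-LMSC and 2324 for M-LMSC. Since both genes lie on 1 mRNA and share bases, they were also summed. Together they stood at 1342 CPM in A-LMSC, 140 CPM in PM-LMSC and 434 CPM in M-LMSC. The log2 ratio of the pair was -3.26 (interval -3.34 to -3.19) for PM-LMSC over A-LMSC and -1.63 (-1.67 to -1.59) for M-LMSC over A-LMSC.

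mt-Atp8, mt-Atp6 and mt-Co3 follow each other on the genome. They were the 3 genes called lower in M-LMSC over A-LMSC. The next gene, mt-Nd3, had a log2 ratio of -0.87, and was called lower too with median-of-ratios factors (-1.06), upper-quartile factors (-1.11) and as a share of the mitochondrial counts (-1.14). With the trend subtracted their ratios were -2.96, -3.25 and -2.99. They were thus lower in M-LMSC with and without the subtraction, although with library totals the ratio of mt-Co3 was -0.62, short of 2-fold. In M-LMSC over PM-LMSC the ratios of mt-Atp8 and mt-Co3 were 1.10 and 1.12, but the share of mitochondrial counts on each gene was lower in M-LMSC, at log2 ratios of -0.40 and -0.38.

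Complex I, the NADH dehydrogenase that passes electrons to ubiquinone, takes 7 of the genes. mt-Nd1 (ENSMUSG00000064341, 2751 to 3707), which lies where ubiquinone binds, stood at 1017 CPM in A-LMSC, 406 CPM in PM-LMSC and 1610 CPM in M-LMSC. mt-Nd2 (ENSMUSG00000064345, 3914 to 4951), 1 of the antiporter-like subunits that move protons, stood at 497, 288 and 1029 CPM. mt-Nd5 (ENSMUSG00000064367, 11742 to 13565), another, stood at 965, 366 and 873 CPM. All were lowest in PM-LMSC. Their log2 ratios for M-LMSC over PM-LMSC were 1.99, 1.83 and 1.25, and with the trend subtracted 0.53, 0.25 and -0.14.

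mt-Nd4 (ENSMUSG00000064363, 10167 to 11544), a further antiporter-like subunit, differed most between M-LMSC and PM-LMSC among genes with ample counts. It had 16143 counts in M-LMSC and 1963 in PM-LMSC, a log2 ratio of 2.60 (interval 2.54 to 2.68) that was 1.05 with the trend subtracted. A-LMSC had 6082. mt-Nd4l (ENSMUSG00000065947, 9877 to 10173), a small membrane subunit on the same mRNA, had 1 count for A-LMSC, 542 for PM-LMSC and 3358 for M-LMSC. Together the pair stood at 551, 196 and 1131 CPM.

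mt-Nd3 (ENSMUSG00000064360, 9459 to 9806), a small subunit near the junction of the membrane and matrix arms, stood at 231 CPM in A-LMSC, 116 CPM in PM-LMSC and 126 CPM in M-LMSC. Its ratio for PM-LMSC over A-LMSC, -0.99, lay just short of 2-fold. mt-Nd6 (ENSMUSG00000064368, 13552 to 14070) is the only member on the minus strand. Apart from mt-Atp6 and mt-Nd4l it was the scarcest member, with 98 counts for A-LMSC, 261 for PM-LMSC and 212 for M-LMSC. These were 8.88 CPM (interval 7.21 to 10.8), 20.4 CPM and 12.3 CPM. Its log2 ratio for PM-LMSC over A-LMSC was 1.11 (0.86 to 1.55), opposite in sign to the ratios of all other members apart from mt-Nd4l, and 0.90 with upper-quartile factors. With library totals mt-Co2 was above 0 as well. For every 100 counts on its neighbour mt-Nd5 there were 0.920 on mt-Nd6 for A-LMSC, 5.57 for PM-LMSC and 1.41 for M-LMSC. mt-Cytb (ENSMUSG00000064370, 14145 to 15288), the cytochrome b of complex III, stood at 831, 300 and 1076 CPM.

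**Figure D3:**
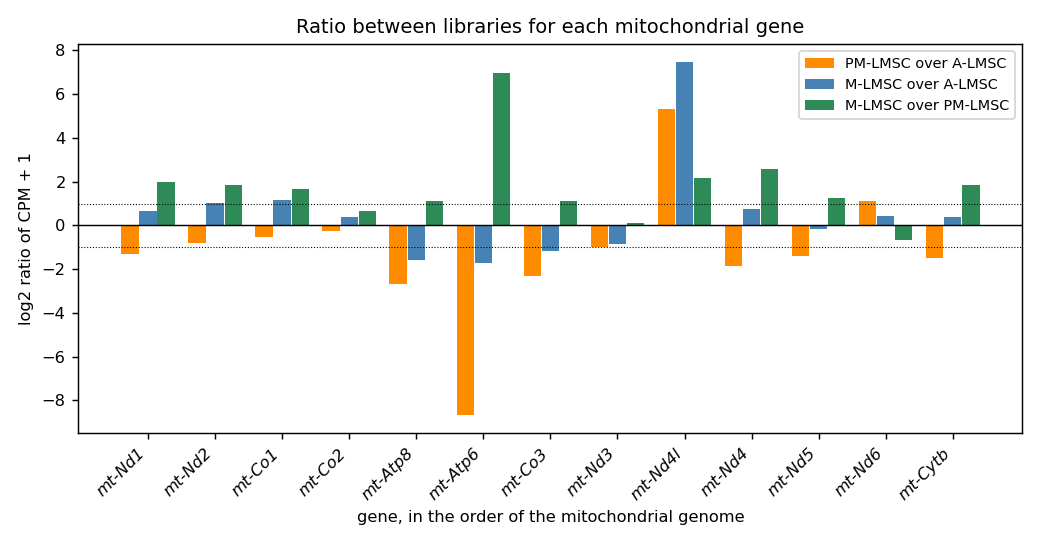
Log2 ratio of CPM + 1 for each mitochondrial gene in the 3 comparisons, with dotted lines at 2-fold. mt-Atp8, mt-Atp6, mt-Co3, mt-Nd3 and mt-Nd5 were below 0 in both comparisons with A-LMSC. For mt-Nd5 in M-LMSC over A-LMSC the value was only -0.15, and it turned to 0.41 with library totals. mt-Atp6 and mt-Nd4l, each with a library at 1 count, have the longest bars.

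Within the mitochondrial counts, the genes changed rank. mt-Co1 took 19.97% of them for A-LMSC, 32.7% for PM-LMSC and 37.1% for M-LMSC. mt-Co3 took 26.2%, 12.59% and 9.65%, and mt-Co2 took 10.2%, 19.9% and 11.1%. mt-Atp8 and mt-Atp6 together took 10.8% for A-LMSC, 2.65% for PM-LMSC and 2.91% for M-LMSC. These 2 are all the complex V genes. Counts on nuclear copies, given below, are not part of these shares. mt-Atp6 had 1 count in PM-LMSC, and mt-Nd4l had 1 count in A-LMSC. The order of PM-LMSC and M-LMSC in the complex V share is therefore not determined. For the other complexes, complex I genes took 26.2%, 26.4% and 32.0%, and complex IV genes took 56.3%, 65.2% and 57.9%.

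**Figure D4:**
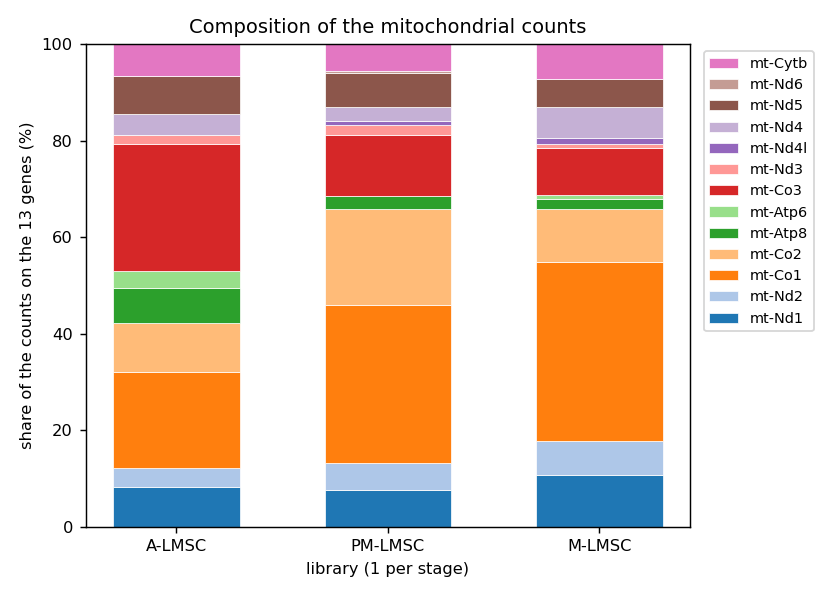
Share of the counts on the 13 mitochondrial genes held by each gene, as a percentage, in the 3 libraries. mt-Co3 holds 26.2% in A-LMSC and 9.65% in M-LMSC, while mt-Co1 holds 19.97% and 37.1%. Counts on nuclear copies are left out.

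Counts of 1 in libraries where neighbouring genes were abundant called for a look at the sequences. The junctions of the genes that share bases are shown because a read over them belongs to both, and a counting program may give it to either or to neither. They were read from GENCODE M21 transcripts (GRCm38) on the plus strand, with the shared bases in capitals. The first covers positions 7897 to 7999 of chromosome M and shares 43 bases, the second 8577 to 8637 with 1 base, the third 10137 to 10203 with 7 bases and the last 13522 to 13595 with 14 bases, where mt-Nd6 runs on the other strand.
mt-Atp8/mt-Atp6: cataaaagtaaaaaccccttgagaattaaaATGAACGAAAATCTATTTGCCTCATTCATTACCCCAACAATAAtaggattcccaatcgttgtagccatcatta
mt-Atp6/mt-Co3: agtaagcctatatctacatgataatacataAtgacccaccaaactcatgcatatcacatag
mt-Nd4l/mt-Nd4: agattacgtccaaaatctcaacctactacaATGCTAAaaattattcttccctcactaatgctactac
mt-Nd5/mt-Nd6: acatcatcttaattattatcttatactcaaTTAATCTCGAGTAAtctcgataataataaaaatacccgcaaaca
In the first and the third window the capitals begin with the ATG start codon of the downstream gene and end with the TAA stop codon of the upstream gene. At the second, the single A is the last base of the mt-Atp6 stop codon and the first base of the mt-Co3 start codon. 3 members (mt-Co3, mt-Nd4 and mt-Cytb) end in an incomplete stop codon, a single T, which the poly(A) tail completes. The protocol does not say whether strand was kept, so reads in the mt-Nd5 and mt-Nd6 overlap cannot be assigned. For the same reason, it is not known whether counts over the rest of mt-Nd6 include RNA of the opposite strand.

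The shared bases are few beside the length of mt-Atp6 and mt-Nd4l, but these genes also have near-perfect nuclear copies. A match of the mitochondrial transcripts to all GENCODE M21 transcripts found 11 gene models with at least 95% identity over at least 200 bases. Of these, 7 lie side by side on the minus strand of chromosome 1, from 24611535 to 24616197 on GRCm38, in the order of the mitochondrial genome. They are annotated as unprocessed pseudogenes. 5 of them are identical to the mitochondrial gene over the match, and 2 differ by 1 base. These differences are the substitution T3C in Gm28438 against mt-Nd3 and A1066T in Gm29216 against mt-Co1, counted from 1 at the first base of the mitochondrial gene. The stretches that hold them are shown 5′ to 3′ in the sense of the gene, with the differing base in capitals. Of reads that lie wholly within the match, only those over that base can tell gene and copy apart. The windows of mt-Nd3 and Gm28438 run over positions 1 to 41 of the gene, and those of mt-Co1 and Gm29216 over positions 1063 to 1103.
mt-Nd3: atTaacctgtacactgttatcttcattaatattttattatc
Gm28438: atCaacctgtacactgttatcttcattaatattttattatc
mt-Co1: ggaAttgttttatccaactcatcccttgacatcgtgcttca
Gm29216: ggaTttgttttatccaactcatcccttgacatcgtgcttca

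The copies carried many counts. The 7 models held 20311 counts for A-LMSC, 6539 for PM-LMSC and 23912 for M-LMSC. In 5 of the 7 pairs, the share of counts on the copy varied little between libraries. Gm28437, the copy of mt-Co3, held 18.3% of the pair's counts for A-LMSC, 15.9% for PM-LMSC and 19.3% for M-LMSC. Gm28661, the copy of mt-Co2, held 17.0%, 14.9% and 19.7%. Gm28438, the copy of mt-Nd3, held 15.8%, 14.1% and 17.3%, and Gm28439, which matches the first 876 bases of mt-Nd4, held 11.7%, 9.87% and 12.2%. Gm29216, which matches the end of mt-Co1 only, held 4.26%, 3.69% and 3.72%. Over these 5 pairs and 3 libraries the share stayed between 3.69% and 19.7%.

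The other 2 pairs did not follow this. Gm10925, the copy of mt-Atp6, had 6625 counts for A-LMSC, 1180 for PM-LMSC and 3718 for M-LMSC. It held 57.6% of the pair's counts for A-LMSC (exact 95% interval 56.6 to 58.5), 99.9% for PM-LMSC (99.5 to 100) and 61.5% for M-LMSC (60.3 to 62.8). Gm10222, the copy of mt-Nd4l, had 279, 107 and 852 counts, and held 99.6% for A-LMSC (98.03 to 100), 16.5% for PM-LMSC and 20.2% for M-LMSC. The single counts of mt-Atp6 and mt-Nd4l thus fell in libraries where the copy had 1180 and 279.

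**Figure D5:**
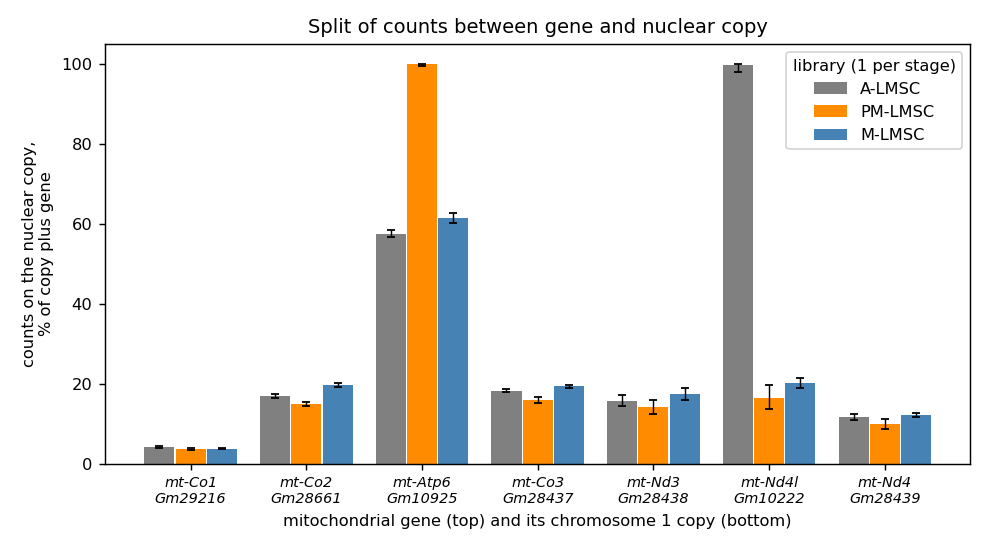
Counts on the chromosome 1 copy as a percentage of copy plus mitochondrial gene, for the 7 pairs and 3 libraries, with exact binomial 95% intervals. The share reaches 99.9% for mt-Atp6 in PM-LMSC and 99.6% for mt-Nd4l in A-LMSC, and stays between 3.69% and 19.7% for 5 pairs.

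The copies and their genes can be set side by side. In PM-LMSC over A-LMSC, the log2 ratio was -8.69 for mt-Atp6 and -2.69 for Gm10925, and 5.31 for mt-Nd4l and -1.49 for Gm10222. Without the pseudocount, mt-Atp6 was 5669-fold lower in PM-LMSC from 1 count (interval 1017 to 223968), and mt-Nd4l was 467-fold higher (83.5 to 18484), so neither size is determined. With gene and copy summed, the log2 ratio was -3.49 (interval -3.59 to -3.41) for mt-Atp6 and 0.97 (0.79 to 1.21) for mt-Nd4l. mt-Atp8, mt-Atp6 and the copy of mt-Atp6 together gave -3.06 (interval -3.12 to -3.01), against -3.26 for the 2 genes without the copy. mt-Nd4l, mt-Nd4 and both copies together gave -1.55. In M-LMSC over A-LMSC, mt-Nd4l had a log2 ratio of 7.49, its copy 0.94, and the sum of both 3.22. In M-LMSC over PM-LMSC, mt-Atp6 had 6.98, its copy 1.22, and the sum 1.91. There was 0.016 count on mt-Nd4l for every 100 on mt-Nd4 in A-LMSC, against 27.6 in PM-LMSC and 20.8 in M-LMSC, while the copies Gm10222 and Gm28439 stood at 34.7, 49.8 and 38.1 per 100. Whether reads were assigned to gene and copy in the same way in each library was not tested, because it needs the alignments.

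Sums over all members were less sensitive to this assignment. The 13 genes and the 7 copies together held 1.17% of all counts for A-LMSC, 0.587% for PM-LMSC and 1.96% for M-LMSC. The summed log2 ratio was then -1.31 for PM-LMSC over A-LMSC, 0.19 for M-LMSC over A-LMSC and 1.50 for M-LMSC over PM-LMSC. The 5 genes outside the copied stretch (mt-Nd1, mt-Nd2, mt-Nd5, mt-Nd6 and mt-Cytb) gave -1.27, 0.47 and 1.74. With copies added, the ratio of mt-Co3 to mt-Co1 was 154 counts per 100 for A-LMSC, 44.1 for PM-LMSC and 31.0 for M-LMSC.

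The nuclear genes that serve the mitochondrial genome were read beside these values. Their ratios still hold the trend with GC content. Among all measured genes, 35.0% were higher and 25.0% lower in PM-LMSC over A-LMSC (median 0.19), 41.0% and 27.7% in M-LMSC over A-LMSC (median 0.34), and 17.3% and 7.85% in M-LMSC over PM-LMSC (median 0.03). The shares of each list are to be read against these. For transcription and replication of mitochondrial DNA, 4 of 16 measured genes were higher and 3 lower in PM-LMSC over A-LMSC, 7 and 5 of 17 in M-LMSC over A-LMSC, and 2 and 0 of 18 in M-LMSC over PM-LMSC. The medians were 0.26, 0.26 and -0.16. Polrmt, the mitochondrial RNA polymerase, stood at 93.2 CPM in A-LMSC, 22.1 CPM in PM-LMSC and 33.7 CPM in M-LMSC, and like the summed mitochondrial level was lowest in PM-LMSC. Tfam, which packs mitochondrial DNA and helps start transcription, stood at 2.81, 17.2 and 20.7 CPM. In M-LMSC over A-LMSC, the largest positive log2 ratios of this list were those of Tfam (2.51), the transcription factor Tfb2m (2.44) and Primpol (2.23). The largest negative ones were those of Atad3a (-1.72), the DNA polymerase Polg (-1.49) and Rnaseh1 (-1.45).

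Genes of mitochondrial RNA processing, stability and decay had the highest median of the 8 lists in each comparison. Of 21 measured, 10 were higher and 3 lower in PM-LMSC over A-LMSC (median 0.90), 13 and 3 in M-LMSC over A-LMSC (median 1.94), and 4 and 2 in M-LMSC over PM-LMSC (median 0.47). These were 47.6% and 14.29%, 61.9% and 14.29%, and 19.0% and 9.52% of the list, against 35.0% and 25.0%, 41.0% and 27.7%, and 17.3% and 7.85% of all genes. Lrpprc, which with Slirp keeps mitochondrial mRNAs stable and polyadenylated, had 21 counts for A-LMSC, 589 for PM-LMSC and 1171 for M-LMSC. Slirp itself stood at 8.34, 8.12 and 11.7 CPM. Pnpt1, the polynucleotide phosphorylase of mitochondrial RNA decay, had 32, 46 and 366 counts. Fastkd5, known in human cells for cutting junctions that no tRNA marks, had 2, 139 and 180 counts, and Fastkd2 had 14, 59 and 288. Fastk, Tbrg4 and Ptcd1 had the largest negative log2 ratios in M-LMSC over A-LMSC, at -1.95, -1.92 and -1.27. Fastk is known for keeping mt-Nd6 mRNA stable, and stood at 92.9 CPM in A-LMSC, 28.4 CPM in PM-LMSC and 23.3 CPM in M-LMSC.

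Of 24 genes for modification of mitochondrial rRNA and tRNA and for ribosome assembly, 3 were higher and 5 lower in PM-LMSC over A-LMSC, 4 and 8 in M-LMSC over A-LMSC, and 1 and 0 in M-LMSC over PM-LMSC. The medians were -0.35, -0.42 and -0.09. Trmt5 (2.38), Nsun3 (2.23) and Mettl15 (1.68) had the largest positive ratios in M-LMSC over A-LMSC, and the tRNA modification genes Gtpbp3 (-1.73), Trub2 (-1.55) and Trmu (-1.48) the largest negative ones. Mterf4, of ribosome assembly, stood at 10.2, 10.9 and 18.7 CPM. Of 14 translation factors, 5 were higher and 3 lower in PM-LMSC over A-LMSC, 5 and 2 in M-LMSC over A-LMSC and 0 in either direction in M-LMSC over PM-LMSC, with medians of 0.13, 0.19 and 0.22. Mtif2, the initiation factor, had 5, 175 and 283 counts, and Guf1 and the elongation factor Gfm1 had ratios of 2.54 and 2.05 in M-LMSC over A-LMSC. Tufm, which brings tRNAs to the mitochondrial ribosome, Tsfm and Ict1 stood at -1.40, -1.28 and -0.98.

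The 76 mitochondrial ribosomal protein genes had 12 higher and 21 lower members in PM-LMSC over A-LMSC (median -0.33), 12 and 23 in M-LMSC over A-LMSC (median -0.44), and 4 and 0 in M-LMSC over PM-LMSC (median -0.06). The lower genes were 27.6%, 30.3% and 0% of this list, close to the 25.0% and 27.7% of all genes in the first and the second comparison and below 7.85% in the third. The higher genes were 15.8%, 15.8% and 5.26% of the list, below the 35.0%, 41.0% and 17.3% of all genes. All 3 medians were also below the all-gene medians of 0.19, 0.34 and 0.03. Mrpl47 (2.60), Mrpl50 (2.30) and Mrps22 (2.24) stood at the top in M-LMSC over A-LMSC, and Mrpl4 (-1.85), Mrps34 (-1.64) and Mrps28 (-1.63) at the bottom. Of the regulators of mitochondrial biogenesis, 4 of 9 were higher and 2 lower in PM-LMSC over A-LMSC, 4 and 1 of 10 in M-LMSC over A-LMSC, and 1 and 2 of 10 in M-LMSC over PM-LMSC, with medians of 0.63, 0.02 and -0.03. Gabpa (3.74), Gabpb2 (3.51) and Yy1 (2.68) had the largest positive ratios in M-LMSC over A-LMSC, and Tfeb (-1.66), Nrf1 (-0.93) and Esrra (-0.87) the largest negative ones. Ppargc1a (PGC-1alpha), the best known inducer of biogenesis, had 3, 2 and 19 counts.

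The genes listed for mitochondrial mass did not sum lowest in PM-LMSC. Mass itself was not measured, and whether these mRNAs follow it here was not tested. The 18 genes summed to 4689 CPM in A-LMSC, 5410 CPM in PM-LMSC and 4187 CPM in M-LMSC. In PM-LMSC over A-LMSC, 5 were higher and 3 lower (median 0.01), in M-LMSC over A-LMSC 4 and 5 (median -0.23), and in M-LMSC over PM-LMSC 0 and 1 (median -0.33). The mitochondrial chaperone genes Hspa9 (3.45) and Hspd1 (3.12) and the cristae gene Immt (2.65) had the largest positive ratios in M-LMSC over A-LMSC. The import channel genes Tomm40 (-1.66) and Timm50 (-1.49) and the prohibitin gene Phb2 (-1.49) had the largest negative ones.

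The nuclear partner subunits of the complexes, with those of complex II, which has no mitochondrial gene, summed lower in both later stages than in A-LMSC. Their 24 genes summed to 9971 CPM in A-LMSC, 5339 CPM in PM-LMSC and 5255 CPM in M-LMSC. In PM-LMSC over A-LMSC, 3 of 24 were higher and 10 lower (median -0.72), in M-LMSC over A-LMSC 2 and 10 of 23 (median -0.84), and in M-LMSC over PM-LMSC 0 and 1 of 24 (median -0.03). The lower genes were 41.7%, 43.5% and 4.17% of this list, against 25.0%, 27.7% and 7.85% of all genes. Ndufs1 (4.25), Uqcrc2 (1.91) and Sdha (0.67) had the largest positive ratios in M-LMSC over A-LMSC, and Ndufs7 (-1.79), Cyc1 (-1.61) and Ndufv1 (-1.60) the largest negative ones. The summed CPM of the 13 mitochondrial genes was 1.25 times that of these partners in A-LMSC, 0.986 times in PM-LMSC and 2.84 times in M-LMSC. The partner sum of M-LMSC and PM-LMSC thus differed little, while the mitochondrial sum had a log2 ratio of 1.50. At the single mitochondrial genes the GC content and length trend was 1.19 to 1.99 in this comparison. The trend was not computed for either sum, and its part in them was not tested.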

How the data were processed

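RNA-seq of cultured lung mesenchymal stromal cells was analysed from 3 libraries, 1 for each stage. The deposited table holds, for each gene, the authors' whole-number read counts and the authors' FPKM, that is, counts relative to gene length and to the library total. Reads were aligned to mm10 with TopHat2 2.0.9 according to the processing notes of the submitters. Not given in the sources used here are the counter, its annotation, the handling of reads with several alignments and the strandedness, each of which can change counts of overlapping or copied genes. Of 34748 lines, 6 incomplete lines were left out.

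CPM were computed from the deposited counts with the TMM factors of edgeR 4.0.16 (R 4.3.3). Ratios are on the scale log2(CPM + 1). A gene was measured where 1 library of the pair reached 1 CPM, and called at 2-fold. Levels carry exact Poisson 95% intervals, shares exact Clopper-Pearson intervals, and ratios exact conditional intervals without the pseudocount. No test could be made with a single library of each stage, and no p-values are printed. Members and gene lists were chosen with earlier results of these data known. By rule, all members, 7 nuclear genes in any case (Polrmt, Tfam, Lrpprc, Slirp, Pnpt1, Ppargc1a and Mterf4) and the 3 largest positive and 3 largest negative ratios of M-LMSC over A-LMSC in each list were named. No genome sequence was used. Nuclear copies were instead sought among GENCODE M21 transcripts (mm10) with BLAST 2.17.0, at 95% identity over 200 bases, and member coordinates were the same in the table and in GENCODE for all 13 genes. Junction sequences are from GENCODE.

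Alternatives were pseudocounts of 0.1 and 5, library totals with and without the mitochondrial genes, median-of-ratios factors (DESeq2 1.42.0), upper-quartile factors, no minimum or 5 CPM, the deposited FPKM, merged overlapping genes, and shares of the mitochondrial counts. Chosen after seeing the data were copies added and subtraction of a lowess trend (span 0.3) with GC content and then length, fitted on nuclear protein-coding genes. The fold call and the ratio interval were tried on simulated Poisson counts, which hold no variation between animals. The scaling factors, the trend subtraction, the match of copies and the gene lists were not part of this simulation. Computation used scipy 1.17.1, statsmodels 0.14.6, numpy 2.4.6 and pandas 2.3.3 in Python 3.11.15, and figures used matplotlib 3.10.9.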

Additional observations from a re-analysis of the deposited data

How the results depend on the processing

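The direction of the summed mitochondrial level was kept under every scaling tried, though barely for M-LMSC over A-LMSC, but its size was not. The GC content and length trend was not subtracted from the sum. For PM-LMSC over A-LMSC the log2 ratio of -1.24 became -0.93 with library totals, -0.94 with totals without the mitochondrial genes, -1.43 with median-of-ratios factors, -1.48 with upper-quartile factors, -1.16 with FPKM and -1.31 with copies added. For M-LMSC over A-LMSC the 0.26 became 0.82, 0.83, 0.067, 0.020, 0.44 and 0.19 in the same order. For M-LMSC over PM-LMSC the 1.50 became 1.75 and 1.76 with the 2 kinds of total and 1.60 with FPKM.

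Of the genes called, the 2 higher in PM-LMSC over A-LMSC became 1 with a pseudocount of 5, median-of-ratios or upper-quartile factors, merged overlapping genes, copies added, or both of these. The 7 lower became 3 as shares of the mitochondrial counts. The 3 higher in M-LMSC over A-LMSC became 1 with median-of-ratios or upper-quartile factors, as shares or with the trend subtracted, and 5 with FPKM or library totals. The 3 lower became 7 with the trend subtracted, 4 with median-of-ratios or upper-quartile factors or as shares, and 2 with FPKM or library totals. The 10 higher and 0 lower in M-LMSC over PM-LMSC became 2 and 2, both as shares and with the trend subtracted. For single genes the sign turned 25 times over these settings, 8 times for a gene called at 2-fold and 17 times for a gene that was not. With the trend subtracted, 12 of the 13 genes were below 0 in M-LMSC over A-LMSC. Of the called genes, M-LMSC over A-LMSC then became -0.34 for mt-Nd2 and -0.59 for mt-Co1, and M-LMSC over PM-LMSC became -0.89 for mt-Atp8, -0.26 for mt-Co3 and -0.14 for mt-Nd5. As shares, M-LMSC over PM-LMSC gave -0.40, -0.38 and -0.25 for the same genes. Shares remove a change common to all 13 genes by construction. The cause of the other shifts was not tested.

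The 13 genes are all protein genes, so restricting the sum to those changed nothing, and a sum without the rRNA genes was not run. No paired analysis was possible because each stage had 1 library. Read assignment to copies limits mt-Atp6 and mt-Nd4l, and 98 to 261 counts and the unknown strandedness limit mt-Nd6.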

Other observations

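Other nuclear gene models matched the mitochondrial genes less closely. Gm13340 on chromosome 2 (22588103 to 22589647, GRCm38), 97.6% identical to mt-Co1, had 159 counts for A-LMSC, 277 for PM-LMSC and 770 for M-LMSC. Beside it, Gm13341, 95.9% identical to mt-Co2, had 0 counts in all libraries, which allows up to 0.272 CPM in A-LMSC, 0.234 CPM in PM-LMSC and 0.174 CPM in M-LMSC. Gm13339, 96.7% identical to part of mt-Nd2, had 6, 6 and 12 counts. Gm4076 on chromosome 13, 95.2% identical to part of mt-Nd5, had 2, 2 and 8 counts.

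The base composition of mt-Nd6 differs from that of the other members, since its mRNA is copied from the opposite strand. G makes up 28.1% of the mt-Nd6 transcript and 5.88% to 16.1% of the others. The start codon is ATG in 9 members, ATA in 1 and another codon in 3.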
